A study of Mus musculus with 4 samples.

Results

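The B cell and plasma cell fate factors described here are 10 transcription factors: Pax5, Ebf1, Bach2, Bcl6, Irf8, Spib, Irf4, Prdm1, Mitf and Zbtb20. Their members were taken as all probes that the scanner files give under one of these gene names, which came to 14 of 39429 probes on the array and 10 of 29875 gene names. Pax5, Bach2, Mitf and Zbtb20 had 2 probes each and the other 6 genes 1 each. Gene expression was measured on 1-colour microarrays in mouse splenic B cells that had been isolated by magnetic sorting and then activated. On day 3 they had been exposed to anti-IgM at 10 µg/mL, a ligand of their antigen receptor, and to anti-CD40 at 10 µg/mL, an imitation of T cell help. The cells came from Ackr4ko males aged 73 days (replicate 1) and 71 days (replicate 2), and from C57BL/6 wild-type males (WT) aged 77 days (replicate 1) and 74 days (replicate 2). Ackr4ko mice lack Ackr4, an atypical chemokine receptor that scavenges chemokines of lymphoid tissue. The labels name no allele for Ackr4ko and no cell type restriction of the deletion. The replicate number marks 1 of 2 independent experiments with other donors, each with 1 array per genotype, and all 4 cultures received both antibodies, so no resting or unstimulated B cells were analysed here.

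Activated B cells choose between staying B cells, entering the germinal centre reaction and becoming antibody-secreting plasma cells, and a small set of mutually repressive transcription factors governs that choice. Pax5, Ebf1, Bach2 and Bcl6 hold the B cell or germinal centre state. Prdm1 (Blimp-1) and high amounts of Irf4 drive plasma cell differentiation and silence the B cell programme, while Irf8 and Spib restrain it. In mice, Mitf has been described as a brake on Irf4 in resting B cells and Zbtb20 as an Irf4 target that sustains long-lived plasma cells.

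The deposited files disagree on the genotypes. In both experiments, the column of the authors' value table for one genotype matched the scanner array of the other genotype best (r = 0.999 to 1 over 16207 probes), and its own scanner array less well (r = 0.9786 to 0.9858). Neither probe for Ackr4 itself gave a signal above background on any array (0 of 4), so Ackr4 checks no label. Directions below follow the scanner files, hence "labelled Ackr4ko" and "labelled WT". Were the value table's genotypes correct instead, each scanner difference below would have the opposite sign. The table's own values, normalized by the authors, also differ from the scanner values in other ways for some probes, and are given below for Prdm1, Spib and Zbtb20. One array stood apart: on WT replicate 2, 9484 spots in rows 826 to 1068 had a local background over 2 times that array's median, against 0 spots on the other 3 arrays. There 42.2% of probes were well above background, against 49.5% to 54.9% on the others. The lowest scaled log2 signal well above background was 5.84 on this array, against 3.82 to 4.60 on the others. A probe not well above background there can thus be brighter than probes that are so on another array. Of the fate factor probes, 4 kept spots lay in this high-background patch, 2 of them for Prdm1 and 1 each for Bach2 and Irf8. The B cell label fitted its markers, since 5 of 5 B cell markers were well above background on every array, with a summed signal of 328135 and 307380 labelled Ackr4ko and 401000 and 371976 labelled WT. Genes listed as T cell markers were above background for 6 of 8 on 3 arrays and 5 of 8 on WT replicate 2, with summed signals of 8924 and 12488 labelled Ackr4ko and 8512 and 15563 labelled WT. Cd2 gave most of these sums, at log2 signals of 12.49 and 12.95 labelled Ackr4ko and 12.33 and 13.45 labelled WT. Cd3d, Cd3e, Cd3g and Cd4 were also above background on every array, Cd4 at 10.64 and 11.25 labelled Ackr4ko and 10.83 and 10.93 labelled WT. Cd8a and Cd8b1 were above background on no array. Macrophage and monocyte markers were above background for 4 of 7 on every array, without Lyz2 and C1qa, and NK cell markers for 1 of 4, without Ncr1 and Klrb1c. In such bulk samples, fewer cells of a type and less RNA per cell cannot be told apart.

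Both Pax5 probes and the first Bach2 probe are shown here. They start nearer the beginning of their transcript than the other fate factor probes and hold a reading frame without a stop codon. Pax5 and Bach2 were each read through 2 stretches of sequence and, for Bach2, the stretches disagreed. The first Pax5 probe (A_51_P122855) starts at base 1009 of its transcript and crosses an exon junction, so that its 60 bases span 32555 bases of the genome at chr4:44550354-44582908 (mm9, minus strand). The second (A_55_P2126394) starts at base 751 and lies at chr4:44658421-44658480. The first Bach2 probe (A_55_P1956370) starts at base 343 of its transcript, at chr4:32588782-32588841 (plus strand), and the second (A_66_P114768) at base 8418, at chr4:32673009-32673068. All sequences are written 5′ to 3′ as the scanner files give them, with no capitals.
Pax5 probe 1: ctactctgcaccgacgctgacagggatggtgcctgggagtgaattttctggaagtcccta
Pax5 probe 2: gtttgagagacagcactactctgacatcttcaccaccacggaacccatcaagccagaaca
Bach2 probe 1: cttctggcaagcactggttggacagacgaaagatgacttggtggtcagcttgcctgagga

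All 14 probes passed the filter, a signal well above background in at least 50% of a probe's spots on 2 or more arrays, and 10 of the 14 had it on all 4. Values are log2 of the scanner's processed signal, scaled to each array's 75th percentile, and are compared only between arrays for the same probe. None of the 14 probes (0) passed limma's test without a block at an adjusted p under 0.05, against 0.024% of all 20862 probes tested, and 1 of the 14 had an unadjusted p under 0.05 (the second Zbtb20 probe). Each member probe's limma adjusted p was 0.9997, with standard errors of 0.34 to 0.78 on the log2 scale (n = 2 per group). With the experiment as a replicate block, limma called 1 of the 14, a Zbtb20 probe, against 3.17% of all probes. This blocked fit gave each of the 14 probes the same SE, 0.35, Prdm1 with its opposite signs included. A blocked p therefore follows the mean difference alone and does not reflect agreement between the experiments. In both experiments, 3 of 14 probes were higher labelled Ackr4ko (Ebf1, Spib and Irf4, where the Spib sign in experiment 1 rests on 1 spot), against 32.3% of all probes, and 4 were lower (Irf8, both Zbtb20 probes and 1 of 2 Mitf probes), against 21.4%. The other 7 had opposite signs in the 2 experiments, against 46.4% of all probes.

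No fate factor repeated a 2-fold difference in the same direction: 0 of 14 probes were at least 2-fold lower labelled Ackr4ko in each experiment, against 0.489% of all probes, and 0 were at least 2-fold higher, against 1.22%. A difference of at least 2-fold in at least 1 experiment was seen for 5 of 14 probes, those of Prdm1, Mitf and Zbtb20, against 13.2% of all probes. One probe, Prdm1, was at least 2-fold apart in both experiments with opposite signs, against 0.206% of all probes, but not without the spots in the high-background patch, where its difference in experiment 2 was -0.33. The genotypes did not overlap for 5 of 14 probes, against 28.7% of all probes, and 1 of the 5, Spib, was set apart by 1 spot. The median size of the difference over the 14 probes was 0.31 in experiment 1 and 0.61 in experiment 2, beside 0.25 and 0.39 over all probes, so the second experiment was the wider one for both. Over all probes the median signed difference was -0.05 in experiment 1 and 0.23 in experiment 2, and small positive differences in the second experiment are to be read against that shift.

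**Figure D1:**
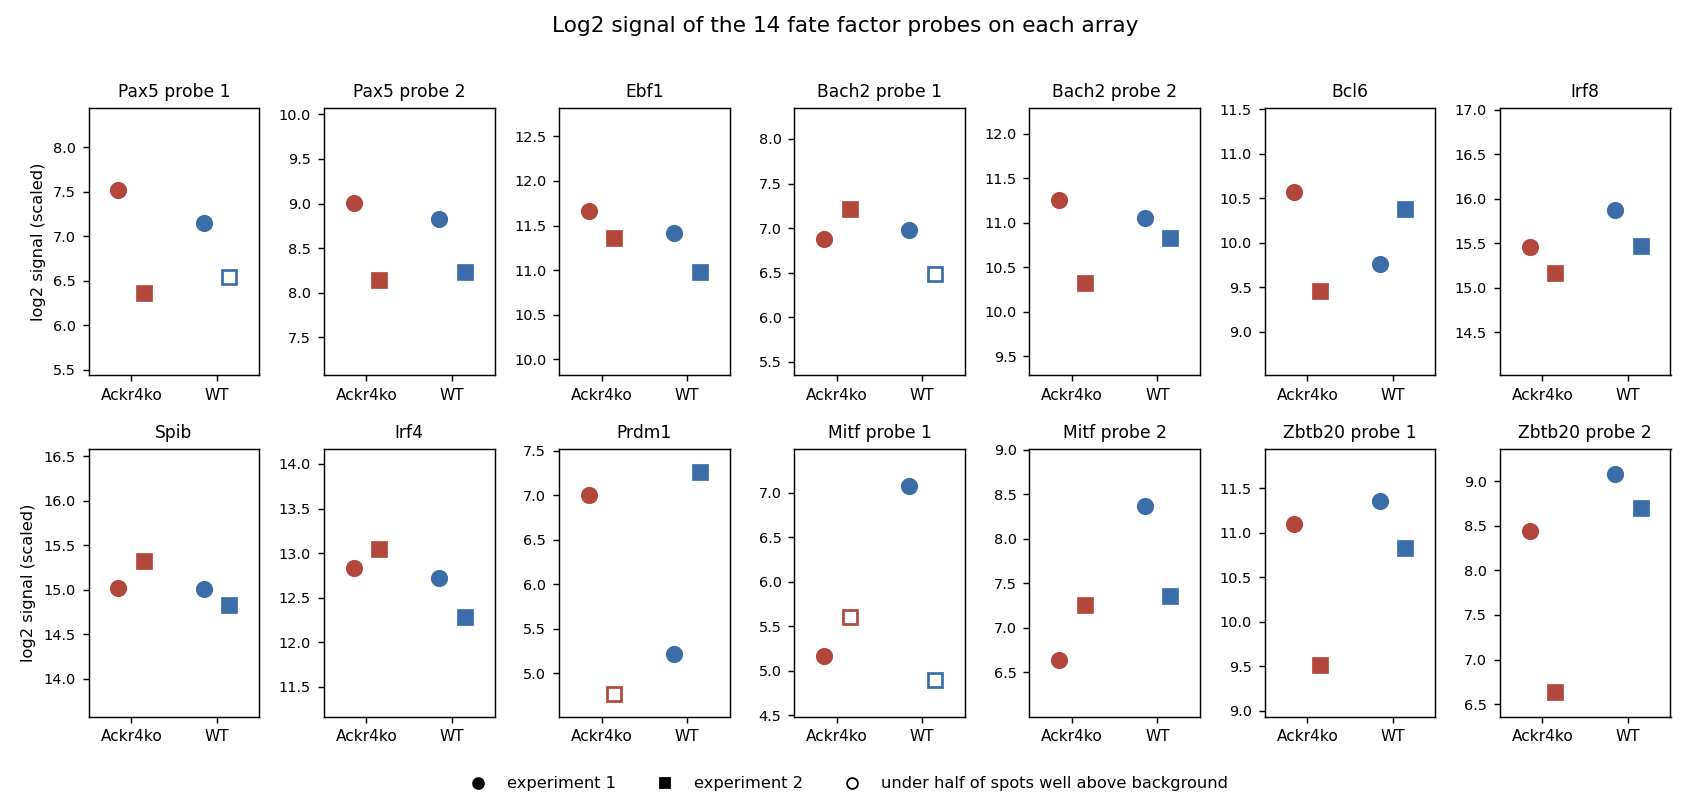
Log2 signal (scaled, vertical axis) of each of the 14 probes on the 2 arrays labelled Ackr4ko and the 2 labelled WT, 1 panel per probe with its own axis. Circles are experiment 1, squares experiment 2 and open symbols arrays where under 50% of the spots were well above background. Zbtb20 probe 2 sits at 8.44 and 6.63 labelled Ackr4ko, below 9.08 and 8.70 labelled WT, while the Prdm1 arrays cross.

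Among the factors that maintain B cell identity, Ebf1 was slightly higher labelled Ackr4ko in both experiments and Pax5 had no steady direction, and neither passed the test. Ebf1, which with Pax5 commits progenitors to the B lineage, had log2 signals of 11.66 and 11.36 labelled Ackr4ko (replicates 1 and 2, as in every such pair), against 11.42 and 10.98 labelled WT. Its arrays overlapped, because both genotypes were lower in experiment 2, and the differences within experiments were 0.24 and 0.38 (mean 0.31 ± 0.35, SE, n = 2 per group). The Ebf1 probe (A_55_P2065513) lies at chr11:44818438-44818497 (mm9). Pax5, the commitment factor that activates B cell receptor genes and represses those of other lineages, had 9.01 and 8.14 labelled Ackr4ko, against 8.82 and 8.23 labelled WT, on its second probe. Its first probe read 7.52 and 6.37 labelled Ackr4ko, against 7.14 and 6.54 labelled WT, where the last value rests on 3 spots of which 0 were well above background. Both Pax5 probes gave the same picture: higher labelled Ackr4ko in experiment 1 (0.37 and 0.18), lower in experiment 2 (-0.17 and -0.09) and with mean differences of 0.10 ± 0.45 and 0.05 ± 0.41 (SE, n = 2 per group). Between experiments both probes moved together, by -1.15 and -0.86 labelled Ackr4ko and by -0.60 and -0.59 labelled WT, so the 2 stretches of the Pax5 transcript recorded a shift between cultures that was larger than their difference between genotypes.

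Bach2 and Bcl6, the repressors that keep an activated B cell from becoming a plasma cell, changed sign between experiments. Bach2, which represses Prdm1, read 11.26 and 10.32 labelled Ackr4ko, against 11.06 and 10.83 labelled WT, on its second probe, far toward the end of the transcript. The differences were 0.20 and -0.51, and the second was -0.36 without 1 spot of WT replicate 2 in the high-background patch. The first Bach2 probe, the one printed above, read 6.88 and 7.22 labelled Ackr4ko, against 6.98 and 6.48 labelled WT, with differences of -0.11 and 0.73. The 2 probes therefore gave opposite signs in each experiment, and on the first probe 0 of the 4 spots of WT replicate 2 were well above background. Their mean differences were 0.31 ± 0.36 for the first and -0.15 ± 0.40 for the second (SE, n = 2 per group).

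Bcl6, the repressor that defines germinal centre B cells and in turn is silenced by Prdm1, had log2 signals of 10.57 and 9.46 labelled Ackr4ko, against 9.76 and 10.38 labelled WT. The highest and the lowest of the 4 arrays were thus both labelled Ackr4ko. Its difference was 0.81 in experiment 1 and -0.92 in experiment 2, which nearly cancelled in a mean of -0.05 ± 0.45 (SE, n = 2 per group). The probe (A_52_P161495, chr16:23965160-23965219, mm9) was well above background on every array, and no spot of it lay in the high-background patch. Between experiments Bcl6 moved by -1.12 labelled Ackr4ko and by 0.62 labelled WT.

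**Figure D2:**
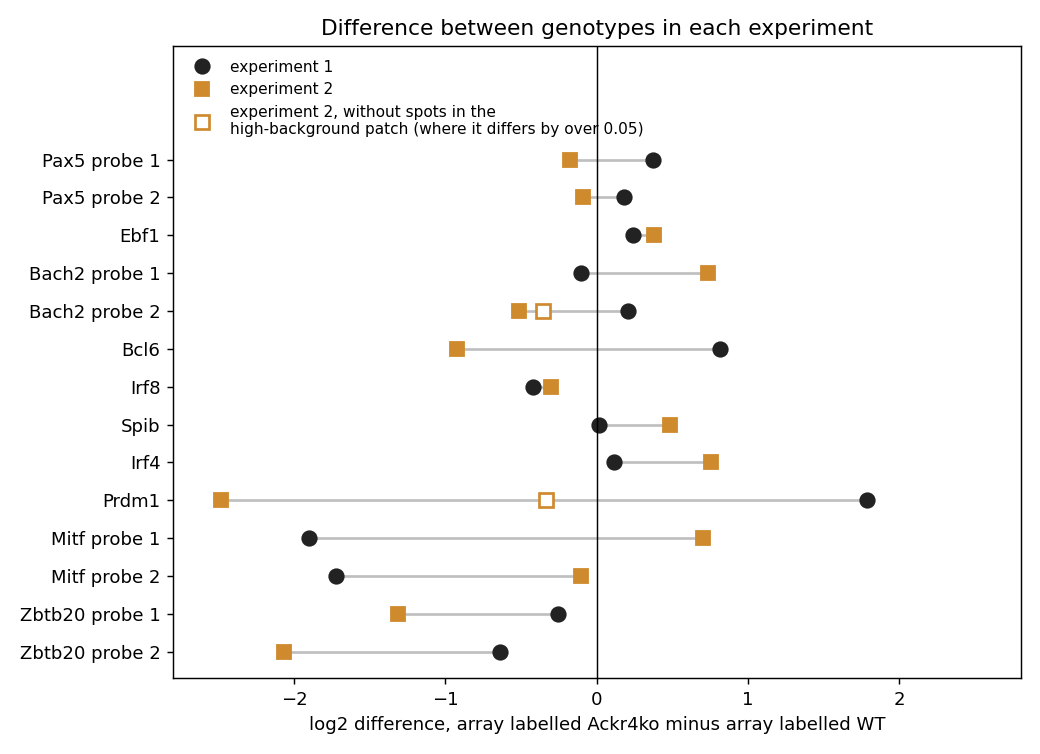
Log2 difference (array labelled Ackr4ko minus array labelled WT, horizontal axis) of each of the 14 probes in experiment 1 (circles) and experiment 2 (filled squares). Open squares give experiment 2 without the spots in the high-background patch, which moves Prdm1 to -0.33 and the second Bach2 probe to -0.36. Only Ebf1, Irf8, Spib, Irf4, both Zbtb20 probes and the second Mitf probe have both experiments on one side of 0, Spib by 0.01 in experiment 1.

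Irf8 and Irf4, related interferon regulatory factors with opposing roles, differed in opposite directions, each by less than 2-fold and with neither passing the test. Irf8, which supports the B cell and germinal centre state, read 15.46 and 15.16 labelled Ackr4ko, against 15.88 and 15.47 labelled WT. Both arrays labelled Ackr4ko lay below both labelled WT, by a narrow margin between Ackr4ko replicate 1 and WT replicate 2. The differences were -0.42 and -0.30 (mean -0.36 ± 0.35, SE, n = 2 per group), on a probe at chr8:123280324-123280383 (A_52_P354823, mm9). Irf4, which is induced by B cell receptor and CD40 signals and promotes plasma cell differentiation at high amounts, read 12.84 and 13.04 labelled Ackr4ko, against 12.72 and 12.29 labelled WT. Both arrays labelled Ackr4ko lay above both labelled WT. The difference was 0.12 in experiment 1 and 0.75 in experiment 2 (mean 0.43 ± 0.35, SE, n = 2 per group), on a probe at chr13:30858532-30858591 (A_55_P2109445, mm9). Read together, the Irf4 difference less the Irf8 difference was 0.54 in experiment 1 and 1.06 in experiment 2, a mean of 0.80 on the log2 scale with no test.

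Spib, an Ets factor close to PU.1 that binds composite elements together with Irf4 or Irf8 and restrains plasma cell differentiation, read 15.02 and 15.32 labelled Ackr4ko, against 15.01 and 14.83 labelled WT. The genotypes did not overlap, but the difference in experiment 1 was 0.01 and only that in experiment 2, 0.49, was wider (mean 0.25 ± 0.34, SE, n = 2 per group). On WT replicate 1 the spots of the Spib probe scattered with an SD of 0.47, against at most 0.07 on the other arrays, so the first difference is less than that scatter. There 1 spot, not flagged as an outlier, had 19615, against 37469 to 38035 for the others. Both the sign in experiment 1 and the lack of overlap rest on that spot. With the median of the spots, the mean difference was 0.15 in place of 0.25. In the authors' value table the Spib difference changed sign between experiments, with 0.17 and -0.10 under the table's own genotypes. The Spib probe (A_55_P2113703) lies at chr7:51781392-51781451 (mm9).

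Factors of this set can act on each other's genes through short promoter elements, and 2 of their RefSeq promoter windows (GRCm38.p6, 250 bases before to 50 after a start) held an Ets-IRF composite element, a GGAA core and a GAAA part bound jointly by Spib or PU.1 with Irf4 or Irf8. Searched on both strands, this element was present in 2 of 15 windows of the fate factors, 1 each for Bcl6 and Bach2, and in 2.715% of 32851 windows of all genes. The same Bcl6 window also held a Bcl6 element (TTCCTNGAA), which 1.589% of all windows and 1 of the 15 held. An IRF element, with a pair of GAAA repeats, was found in 1 of the 15 (Ebf1) and in 3.443% of all windows, and an E-box (CANNTG), the kind of element that Mitf binds, in 9 of the 15 and 72.314% of all. The composite and IRF elements can overlap, since they share a GAAA part. The 250 bases upstream are printed with the elements in capitals: the Bcl6 window at chr16:23981284-23981533 (minus strand), with the Bcl6 element at position -168 and the composite element at -28 from the start, and the Bach2 window at chr4:32417185-32417434 (plus strand), with the composite element on the opposite strand at -17.
Bcl6 upstream window: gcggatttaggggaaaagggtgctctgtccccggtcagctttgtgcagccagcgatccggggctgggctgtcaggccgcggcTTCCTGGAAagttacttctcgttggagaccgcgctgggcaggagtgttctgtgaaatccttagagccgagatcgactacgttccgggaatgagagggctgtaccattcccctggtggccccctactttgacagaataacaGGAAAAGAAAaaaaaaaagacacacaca
Bach2 upstream window: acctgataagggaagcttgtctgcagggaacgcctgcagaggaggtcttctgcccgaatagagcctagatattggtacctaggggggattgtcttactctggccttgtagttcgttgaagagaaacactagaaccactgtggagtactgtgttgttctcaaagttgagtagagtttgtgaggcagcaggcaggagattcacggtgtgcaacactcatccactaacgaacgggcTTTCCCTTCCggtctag
A match describes these letters only and is no evidence of binding.

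Prdm1 encodes Blimp-1, the repressor that ends the B cell programme in plasma cells, and its values had opposite signs in the 2 experiments. Its probe (A_55_P2027022, chr10:44157089-44157148, mm9) read 7.00 and 4.77 labelled Ackr4ko, against 5.22 and 7.26 labelled WT. In each experiment one array was high and the other low, and the high array carried the other label in the second experiment. The difference was 1.79 in experiment 1 (3.45-fold higher labelled Ackr4ko) and -2.48 in experiment 2, where the array labelled Ackr4ko had no spot well above background (0 of 4), with a mean of -0.35 ± 0.78 (SE, n = 2 per group), the largest SE of the 14 probes.

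The spots behind these values differed between the experiments. In experiment 1 the 4 spots of Ackr4ko replicate 1 had processed signals of 166 to 184, all well above background, and those of WT replicate 1 had 34.3 to 38.4. In experiment 2 the 4 spots of Ackr4ko replicate 2 had 11.3 to 32.8, with 0 well above background. On WT replicate 2, 2 spots had 34.2 and 32.5 at local backgrounds of 34 and 48, and the other 2 had 1076 and 402 at local backgrounds of 280 and 124. Both bright spots lay in the high-background patch and neither was flagged as an outlier by the scanner software. Without them WT replicate 2 read 5.10, with no remaining spot well above background. The difference in experiment 2 was then -0.33 in place of -2.48, and the mean difference was 0.73 in place of -0.35. In the authors' value table the sizes were 1.83 for experiment 1 and 0.55 for experiment 2, the second again far smaller than over all 4 spots. The Prdm1 difference of experiment 1 thus rests on 8 spots that lay close together within each array, and that of experiment 2 on 2 bright spots of 1 array.

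**Figure D3:**
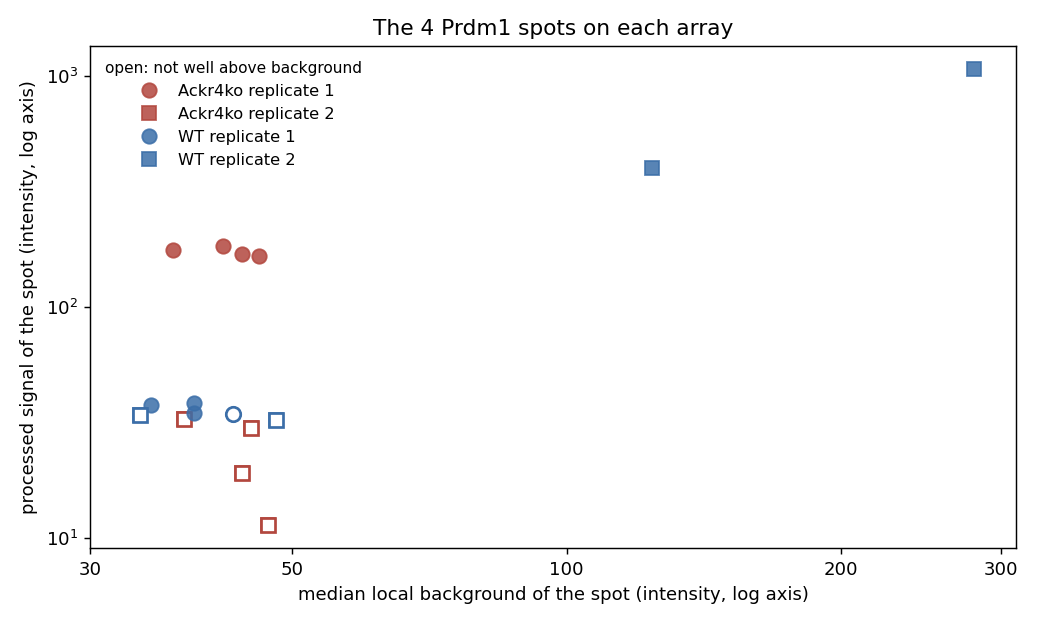
Processed signal (intensity, log axis) of each Prdm1 spot against its local background (intensity, log axis), 4 spots per array, with open symbols for spots not well above background. The spots of Ackr4ko replicate 1 lie together at 166 to 184, while on WT replicate 2 the spots at 1076 and 402 stand at local backgrounds of 280 and 124 and the other 2 lie at 34.2 and 32.5.

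The Prdm1 axis was also read against its antagonists, as the Prdm1 difference less the difference of each antagonist's brightest probe (the second one for Pax5 and Bach2). Against Bcl6 this gave 0.97 in experiment 1 and -1.56 in experiment 2, against Pax5 1.60 and -2.39, and against Bach2 1.58 and -1.97, each with the sign of the Prdm1 difference itself. Without the spots of the high-background patch, the experiment 2 values were 0.59 against Bcl6, -0.24 against Pax5 and 0.02 against Bach2. With the first Bach2 probe, an alternative added after seeing the data, the reading was 1.89 in experiment 1 and -3.22 in experiment 2, or -1.065 without those spots. In experiment 1 the balance therefore lay toward Prdm1 on the array labelled Ackr4ko for all 3 antagonists. In experiment 2 the sign changed without these spots for Bcl6 and the second Bach2 probe, and not for Pax5 and the first Bach2 probe. No Prdm1 spot left in experiment 2 was then well above background on either array, so no direction is read from those values. The Irf4 difference less the Bcl6 difference was -0.70 in experiment 1 and 1.68 in experiment 2, opposite in sign to the Prdm1 readings over all spots. No test was made on these readings, which share arrays and probes.

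Mitf, a helix-loop-helix factor, was lower labelled Ackr4ko on both of its probes in experiment 1 and not in experiment 2. The second probe (A_55_P2176838, chr6:97971229-97971288, mm9) read 6.64 and 7.26 labelled Ackr4ko, against 8.36 and 7.36 labelled WT. Both arrays labelled Ackr4ko lay below both labelled WT, but WT replicate 1 stood alone at the top and the other 3 arrays lay between 6.64 and 7.36. The difference was -1.72 in experiment 1 (3.30-fold lower) and -0.11 in experiment 2, with a mean of -0.91 ± 0.43 (SE, n = 2 per group) and a limma adjusted p of 0.185 with the experiment as a block. The first probe (A_55_P2152437, chr6:97968501-97968560) read 5.17 and 5.60 labelled Ackr4ko, against 7.07 and 4.90 labelled WT, with differences of -1.90 and 0.70. In experiment 2 this probe was near background, with 1 of 4 spots well above it on Ackr4ko replicate 2 and 0 of 3 on WT replicate 2. Both Mitf probes put WT replicate 1 highest. Kit, a receptor of mast cells, in which Mitf also acts, read 4.52 and 4.03 labelled Ackr4ko, against 7.83 and 6.40 labelled WT, and was well above background on WT replicate 1 alone. The mast cell genes Cpa3 and Mcpt4 were above background on no array. These genes shared a list of 7 with neutrophil genes, of which 2 and 2 were above background labelled Ackr4ko and 3 and 2 labelled WT. Summed signals of that list were 1150 and 1206 labelled Ackr4ko and 1265 and 1067 labelled WT. The neutrophil genes Ly6g and Elane gave most of these sums, so the sums say little on mast cells. The part of mast cells in the Mitf values was not tested.

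Zbtb20, the zinc finger factor that sustains plasma cells, was lower labelled Ackr4ko on both of its probes and in both experiments, and gave the only call among the fate factors. The second probe (A_55_P2108903, chr16:43622673-43622732, mm9, base 6858 of its transcript) read 8.44 and 6.63 labelled Ackr4ko, against 9.08 and 8.70 labelled WT. Both arrays labelled Ackr4ko lay below both labelled WT, and Ackr4ko replicate 2 was far the lowest. The difference was -0.64 in experiment 1 (1.56-fold lower) and -2.07 in experiment 2 (4.19-fold lower), with a mean of -1.35 ± 0.54 (SE, n = 2 per group). Its limma adjusted p was 0.9997 without a block (unadjusted p 0.0340), 0.00683 with the experiment as a block, and 0.544 with the block and quantile normalization, so the call depended on both choices. The blocked SE was the same as for every other fate factor probe, so the blocked p does not reflect the unequal differences of the 2 experiments. Leaving out Ackr4ko replicate 2, the mean difference was -0.45 in place of -1.35.

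The first Zbtb20 probe (A_55_P2035495, chr16:43619030-43619089, base 2986 of its transcript) read 11.10 and 9.52 labelled Ackr4ko, against 11.35 and 10.83 labelled WT. Here the arrays overlapped, because Ackr4ko replicate 1 lay above WT replicate 2, and Ackr4ko replicate 2 was again the lowest. The differences were -0.26 and -1.32, with a mean of -0.79 ± 0.51 (SE, n = 2 per group) and a limma adjusted p of 0.345 with the block. Without Ackr4ko replicate 2 its mean difference was 0.003. The probes thus agreed in sign in each experiment and in ranking Ackr4ko replicate 2 lowest, and both recorded a smaller difference in experiment 1 than in experiment 2. Neither had a spot in the high-background patch, and the spots of either probe scattered by an SD of at most 0.11 on any array. In the authors' value table the differences of the second probe were 0.63 and 2.22 under that table's own genotypes, close to the scanner values in size and opposite in sign.

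Over the 14 probes, the median size of the shift between experiments was 0.74 labelled Ackr4ko and 0.51 labelled WT, beside 0.45 and 0.31 over all probes. The shift was larger labelled Ackr4ko for 8 of the 14 probes (57.1%) and for 60.6% of all probes. Ackr4ko replicate 2 was the lowest of the 4 arrays for both Zbtb20 probes, Irf8, Prdm1, both Pax5 probes, Bcl6 and the second Bach2 probe. Dendritic cell markers were above background for 6 and 6 of 10 genes labelled Ackr4ko and 4 and 4 labelled WT, with summed signals of 99170 and 148265 labelled Ackr4ko and 102838 and 115254 labelled WT. Siglech and Ccr7 gave most of these sums, so the sums say little on the other markers. Siglech read 15.66 and 16.03 labelled Ackr4ko, against 15.87 and 15.83 labelled WT, and Ccr7 15.15 and 16.15, against 15.23 and 15.67. Batf3 and Fscn1 were above background on both arrays labelled Ackr4ko and on neither labelled WT, which made the difference in the counts. Batf3 read 5.65 and 7.25 labelled Ackr4ko, and Fscn1 6.39 and 6.29. Flt3 read 13.38 and 12.97 labelled Ackr4ko, against 12.08 and 12.13 labelled WT. Zbtb46 read 7.87 and 8.66 labelled Ackr4ko, against 7.21 and 7.34 labelled WT. Itgax, Xcr1, Clec9a and Cd209a were above background on no array. Irf4, Irf8, Spib and Zbtb46 are also expressed by dendritic cells. The part of these cells in the fate factor values was not tested.

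Genes of the programmes around these factors were described from 4 lists, with 1 probe per gene, and beside 15969 tested genes, of which limma without a block called 0.0125% and with the block 3.18%. Over all tested genes 33.0% were higher labelled Ackr4ko in both experiments and 20.9% lower, and the median difference was 0.08. The fate factors themselves, 1 probe each, had a median difference of -0.10 (-0.0044 without the spots in the high-background patch), with 3 of 10 higher in both experiments, 3 lower and 4 with opposite signs. Of 14 B cell identity genes all 14 were tested, 0 were called by limma with or without the block and 0 had an unadjusted p under 0.05, 2 were higher and 4 lower in both experiments, and the median was -0.24. Of those with the same sign in both experiments, the 3 with the smallest p were Vpreb3, a VpreB-like protein, with differences of 0.99 and 0.21, Ralgps2, an exchange factor, with 0.39 and 0.51, and Cd79b, a signalling chain of the B cell receptor, with -0.35 and -0.33. Without Ackr4ko replicate 2 the median of the identity list was 0.25 in place of -0.24.

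Of the germinal centre list, 10 of 14 genes passed the filter. Limma called 0 of the 10 without a block (5 at an unadjusted p under 0.05) and 5 with it, all 5 higher labelled Ackr4ko, and 0 with the block and quantile normalization. In both experiments 6 were higher and 2 lower, and the list median was 0.84, beside 0.08 for all genes and -0.05 for Bcl6. The median was 0.43 without the filter, 0.43 over genes above background on all 4 arrays and 0.48 without WT replicate 1. Basp1, a membrane-associated protein, read 10.39 and 10.48 labelled Ackr4ko, against 8.08 and 8.94 labelled WT (1.93 ± 0.39, SE, n = 2 per group, limma adjusted p 7.5e-06 with the block). Plxnb2, a semaphorin receptor, read 10.39 and 10.63 labelled Ackr4ko, against 8.85 and 9.55 labelled WT (1.31 ± 0.37, SE, n = 2 per group, limma adjusted p 0.00982 with the block). Fas, a death receptor, and Rgs13, a regulator of G protein signalling, were also called with the block, at mean differences of 1.25 and 1.82. Mef2b, an activator of Bcl6 in human germinal centre B cells, had differences of -0.69 and -0.68 and was not called.

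The plasma cell list is given beside Prdm1's crossing values. Of 18 genes 15 were tested, limma called 0 without a block (2 at an unadjusted p under 0.05), 2 with it and 0 with the block and quantile normalization, 8 were higher and 3 lower in both experiments, and the median was 0.06. Derl3, which serves degradation of misfolded proteins in the endoplasmic reticulum, read 10.86 and 9.78 labelled Ackr4ko, against 8.30 and 8.79 labelled WT (limma adjusted p 5.55e-05 with the block). Tigit, an inhibitory receptor, was not well above background on either array labelled WT and was at least 2.20-fold higher labelled Ackr4ko, taking the brighter group's mean against the higher of the probe's own signal and the lowest signal well above background on each dim array. Ell2, an elongation factor for secretory immunoglobulin transcripts, differed by 0.66 and 0.61 and was not called. Genes that define plasma cells were not called: Sdc1, the surface proteoglycan CD138, had differences of 0.12 and -0.90, Jchain, the joining chain of secreted IgM and IgA, had -1.31 and 0.80, and Xbp1, the secretory pathway regulator, had 0.02 and 0.09. Sdc1 and Jchain changed sign between experiments, Sdc1 in the order of the Prdm1 values over all spots and Jchain in the opposite order.

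Among 22 partner transcription factors, all tested, limma called 0 without a block (3 at an unadjusted p under 0.05), 2 with it and 0 with the block and quantile normalization, 6 were higher and 7 lower in both experiments, and the median was 0.11. Nfil3, a leucine zipper factor, read 9.43 and 11.62 labelled Ackr4ko, against 8.28 and 9.12 labelled WT (limma adjusted p 2.95e-05 with the block). Zbtb32, a zinc finger repressor related in structure to Bcl6 and Zbtb20, read 12.44 and 12.92 labelled Ackr4ko, against 10.83 and 11.73 labelled WT (limma adjusted p 0.0043 with the block). Batf, an AP-1 factor that binds composite elements with Irf4 or Irf8, read 14.06 and 14.13 labelled Ackr4ko, against 13.30 and 12.79 labelled WT, and was not called with the block (limma adjusted p 0.083). These 3 were higher in both experiments with no overlap between genotypes, which largely follows from naming them by a small p and the same sign in both experiments. Myc, a target of Bcl6 and Prdm1 repression, had differences of -0.38 and 1.18.

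**Figure D4:**
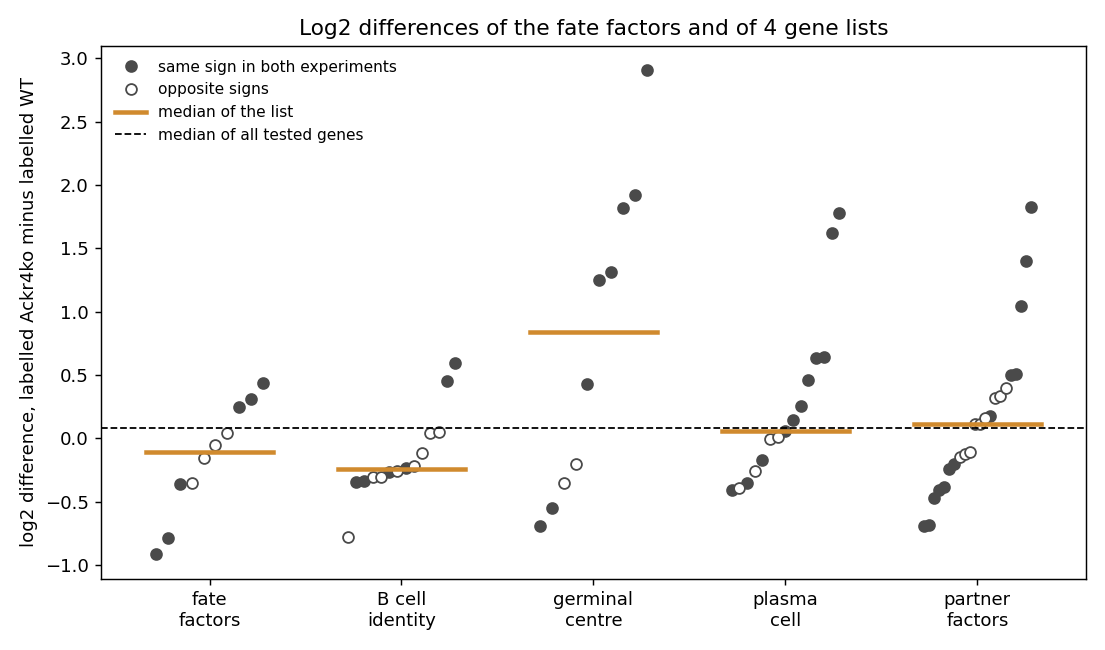
Log2 difference (labelled Ackr4ko minus labelled WT, mean of both experiments, vertical axis) of each tested gene of the fate factors and of 4 gene lists. Filled points have the same sign in both experiments, bars are list medians and the broken line is the median of all tested genes, 0.08. The germinal centre median stands at 0.84, and those of the fate factors and B cell identity genes at -0.10 (all spots; -0.0044 without the high-background patch) and -0.24.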

How the data were processed

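RNA of 4 cultures (50 ng input, Cy3) was hybridised to Agilent 1-colour arrays. Agilent Feature Extraction 10.7.3.1 is named in the file headers and the submitters' processing notes. Its scanner files, as deposited, give each spot's processed signal as an intensity, on a linear scale. The authors' deposited value table holds 1 normalized intensity per probe, and how it was made is not given in the sources used here. The scanners' processed signals were put on a log2 scale, minus each array's 75th percentile (1277 and 740 labelled Ackr4ko, 916 and 913 labelled WT), plus the mean of those percentiles on the log2 scale. Control spots and outlier-flagged spots were left out, and up to 4 spots per probe were averaged. No spot was saturated (0). Of 39429 probes, 28322 were named by accession through RefSeq's gene table for GRCm38.p6, 3405 by symbol and 243 by synonym, and 7459 kept the array's name. Probe positions are those of the files (mm9). Promoter sequences are RefSeq's.

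Genotypes were compared in limma 3.58.1 (R 4.3.3; lmFit and eBayes, two-sided) on 20862 probes, with Benjamini-Hochberg adjustment over all of them, without a block as the main fit. An exact permutation test of 2 against 2 arrays cannot give a p below 0.333, and the number of arrays limits the precision. By the series description, arrays of one number belong to one experiment, and their deviations from the group means had a correlation of 0.42, so the blocked fit is given where it changed a call. Lists use the brightest tested probe per gene. Named genes are every member and, from each list with fewer than 3 called genes, the up to 3 with the smallest p among those differing the same way in both experiments. The other genes named from the lists (Fas, Rgs13, Mef2b, Sdc1, Jchain, Xbp1 and Myc) were chosen after their values were seen. So were the markers named with a signal above background, Kit, Zbtb46, Batf3, Fscn1, Flt3, Siglech, Ccr7 and Cd2 among them. The members and lists were chosen with earlier results of these data known. One gene of the germinal centre list is not reported here by name. Fits were tested on simulated data. Alternatives covered normalization, background correction, the filter, the block, the value table, each array left out and, added after seeing the data, the median of spots, leaving out spots of high local background and the first Bach2 probe in one reading.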

Additional observations from a re-analysis of the deposited data

How the results depend on the processing

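The count of all probes called by limma was 5 and depended on the settings. It was 1 with quantile normalization, 151 with normexp background correction, 0 with no filter on dim probes (356 at an unadjusted p under 0.05), 2 with 1 probe per gene, 1 in the authors' value table, 661 with the experiment as a replicate block, 639 with the replicate block and without spots of high local background, 0 with the replicate block and quantile normalization (1839 at an unadjusted p under 0.05), and 0 to 182 when each array was left out in turn. Among the fate factor probes 0 were called in each of these fits except the replicate block, which called 1, the second Zbtb20 probe, with all spots (limma adjusted p 0.00683) and also 1 without spots of high local background (0.00542). Leaving out spots of high local background turned the Prdm1 difference to 0.73, with and without the replicate block. In the authors' value table, whose genotypes run opposite to the scanner files, the differences reversed to -0.22 for Ebf1, 0.54 for Irf8, -0.29 for Irf4, 0.13 for Bcl6, -0.0003 for the second Pax5 probe, -0.24 and 0.14 for the Bach2 probes, 0.78 and 1.11 for the Mitf probes and 0.85 and 1.43 for the Zbtb20 probes. There 3 probes kept their sign, Prdm1 at -0.64, the first Pax5 probe at 0.0069 and Spib at 0.0309. Leaving out each array in turn gave ranges that spanned 0: -0.62 to 0.32 for the second Bach2 probe, -0.61 to 0.50 for Bcl6, -1.68 to 0.48 for the first Mitf probe, -0.47 to 0.67 and -0.39 to 0.48 for the Pax5 probes, -1.47 to 0.77 for Prdm1 and -1.58 to 0.0031 for the first Zbtb20 probe. The directions of Ebf1, Irf8, Spib, Irf4, the first Bach2 probe, the second Mitf probe and the second Zbtb20 probe held when each array was left out and under each normalization, background correction and filter, except that the first Bach2 probe was not tested under the filter on all 4 arrays. The list medians spanned -0.17 to 0.34 for the partner factors and -0.33 to 0.25 for the B cell identity genes when each array was left out, and the plasma cell median was -0.035 with quantile normalization. The cause of these changes was not tested.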
